A study of Mus musculus with 6 samples.

Results

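Immediate early genes are transcribed within minutes of a growth factor, stress or mechanical stimulus without the need for new protein. Their products, many of them transcription factors, relay the signal to later genes. The Fos and Jun proteins pair through leucine zippers to form the AP-1 factors, Fos family members only with a partner and Jun proteins also with each other. Serum response factor and factors that bind cyclic AMP response elements switch the genes on below MAP kinases, and phosphatases such as Dusp1 shut the kinases off again. In endothelium they respond to growth factors and to flow, and in many tissues they are also known to be induced while cells are dissociated.

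The account covers 10 genes chosen by symbol, namely Fos, Fosb, Jun, Junb, Jund, Egr1, Atf3, Ier2, Ier3 and Dusp1, of 18193 genes measured. They were chosen with earlier results of these data known. The 10 genes had 12 probe sets annotated to them alone, and each gene is given by its probe set with the highest mean over the 6 arrays. Cells came freshly isolated from heart tube, caudal-half tissue and yolk sac of mouse embryos at day 9.5 on a mixed strain background, with no treatment, and were sorted for surface CD31 and against CD41 and CD45. CD31 is an endothelial surface protein, while CD41 and CD45 are carried by blood lineages. Each tissue has 2 independent biological replicates, each on its own Affymetrix array, and the labels used here do not say how many embryos were pooled. There is no control tissue, so the tissues are set against each other. Every array came from isolated and sorted cells, so any effect of that handling cannot be told apart from tissue and was not tested.

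Levels are the natural log of the deposited signals, read as the authors' RMA log2 values because the signals reach 2172540, beyond a 16-bit scanner's limit of 65535. If the signals are linear instead, every difference and standard error below is larger by a factor of 1.44, every fold is raised to that power, and the p-values stay the same. Replicate arrays correlated at r = 0.982 to 0.987 over all probe sets with 1 gene, while pairs from different tissues reached 0.944 to 0.968. Spike-in controls of bacterial origin (27 probe sets) lay between 1.33 and 4.03, which marks the range of weak signal. The 10 endothelial markers averaged 9.64 and 9.77 in heart tube cells, 10.04 and 10.14 in caudal-half cells, and 10.38 and 10.39 in yolk sac cells, and none of them lay at bacterial control level in any tissue. Markers of other cells were also present. The 10 visceral endoderm markers averaged 4.23 and 4.26 in heart tube cells, 4.81 and 4.91 in caudal-half cells, and 9.21 and 9.24 in yolk sac cells.

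The 10 genes did not move as a block between tissues. In limma's fit over all genes 7 of them passed an adjusted p of 0.05 in at least 1 of the 3 pairwise comparisons, and 12 of the 30 differences passed. Over all genes 16.5% passed in at least 1 comparison. Fos, Fosb, Egr1 and Dusp1 had their lowest mean in the heart tube and their highest in the yolk sac. Atf3, Jun and Ier2 had their lowest mean in the yolk sac, and Ier3 was highest in the caudal-half tissue. Jun, Junb and Jund passed no comparison. In bulk samples fewer cells of a type and less RNA per cell cannot be told apart. The p-values rest on the spread between the 2 arrays of each tissue, pooled over the 3 tissues and moderated towards that of all genes.

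**Figure D1:**
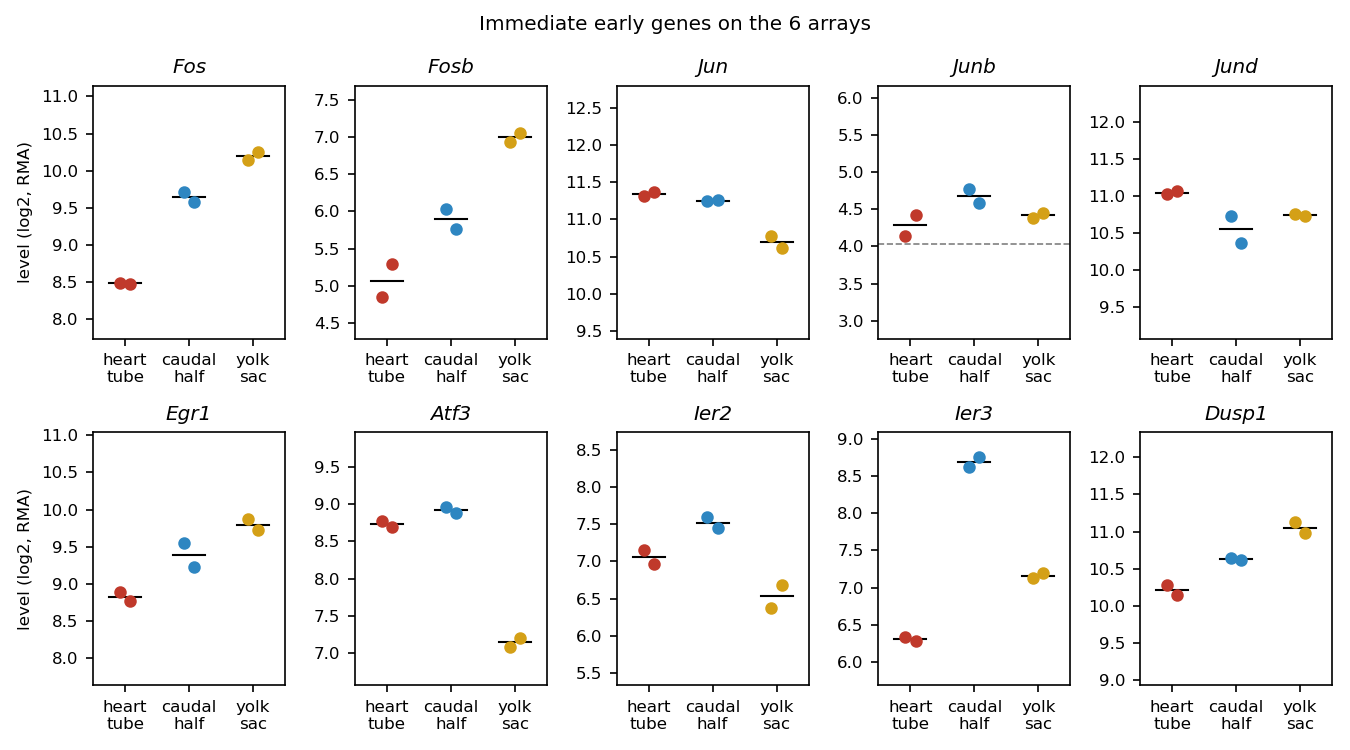
Level (log2, RMA) of the 10 immediate early genes on each of the 6 arrays, with heart tube, caudal-half tissue and yolk sac from left to right, points for arrays and bars for the tissue means; every panel spans the same height. Fos, Fosb, Egr1 and Dusp1 climb from left to right, Atf3 is low only in the yolk sac among the 3 tissues, and the dashed line in the Junb panel is the highest bacterial control at 4.03.

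The upstream regions of Fos, Dusp1, Atf3 and Ier3 are printed because these genes stand for the 3 patterns, lowest in heart tube cells, lowest in the yolk sac and highest in caudal-half cells. Each run holds the 250 bases before the RefSeq start, 5′ to 3′ on the gene's strand, on GRCm38.p6. Capitals mark the cyclic AMP response element core TGACG or its reverse complement CGTCA, the longer TGACNTCA, which overlaps TGACG where its N is G, and the TATA sequence TATAA. The runs lie at chr12:85473640-85473889 (plus strand) for Fos, chr17:26508473-26508722 (minus strand) for Dusp1, chr1:191183334-191183583 (minus strand) for Atf3 and chr17:35821463-35821712 (plus strand) for Ier3, each just upstream of its gene.
Fos: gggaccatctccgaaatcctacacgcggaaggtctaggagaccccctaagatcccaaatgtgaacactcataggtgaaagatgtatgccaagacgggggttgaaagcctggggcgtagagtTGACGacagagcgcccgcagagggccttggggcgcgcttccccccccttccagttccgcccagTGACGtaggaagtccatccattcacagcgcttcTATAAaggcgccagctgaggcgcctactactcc
Dusp1: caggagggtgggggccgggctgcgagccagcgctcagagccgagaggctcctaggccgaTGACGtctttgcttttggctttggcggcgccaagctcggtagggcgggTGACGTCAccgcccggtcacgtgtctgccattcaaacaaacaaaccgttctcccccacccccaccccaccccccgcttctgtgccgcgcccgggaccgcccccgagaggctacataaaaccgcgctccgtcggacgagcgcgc
Atf3: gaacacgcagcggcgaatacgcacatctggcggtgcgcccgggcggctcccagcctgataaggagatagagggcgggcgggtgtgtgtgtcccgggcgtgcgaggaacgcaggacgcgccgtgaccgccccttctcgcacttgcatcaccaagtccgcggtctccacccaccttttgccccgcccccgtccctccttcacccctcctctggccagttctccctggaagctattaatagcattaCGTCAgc
Ier3: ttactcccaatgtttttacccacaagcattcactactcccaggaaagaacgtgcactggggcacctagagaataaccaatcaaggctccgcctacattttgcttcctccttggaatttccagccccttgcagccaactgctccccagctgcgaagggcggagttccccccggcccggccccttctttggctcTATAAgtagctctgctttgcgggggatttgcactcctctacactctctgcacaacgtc

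Promoters matched by symbol for 8 of the 10 genes in the RefSeq table, and each motif was searched on both strands of the 250 bases. The core TGACG was in 5 of the 8 (Fos, Fosb, Junb, Atf3 and Dusp1), and in 17.8% of all 32851 promoter windows. The last 73 bases of the Fosb window lie within the annotated gene and hold its TGACG (60 to 56). Fos held it at 129 to 125 and at 66 to 62 bases before the start, and Atf3 at 7 to 3. TGACNTCA was in 2 of the 8, as TGACGTCA in Dusp1 (143 to 136) and as TGACATCA in Jun (45 to 38), against 7.49% of all windows. TATAA was found in Fos and Ier3 (22.8% of all windows). The AP-1 motif TGANTCA (6.75%) and the CArG box of serum response factor (1.47%) were in 0 of the 8 windows. The search could not show sites farther than 250 bases upstream, nor any of Egr1 and Ier2, which had no matched promoter. A match is a description of letters, and the part of any motif in the differences between tissues was not tested.

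Fos and Fosb, the Fos family genes among the 10, were lower in heart tube cells than in yolk sac cells. Fos, the founding AP-1 subunit, read 8.49 and 8.47 in heart tube cells, 9.71 and 9.58 in caudal-half cells, and 10.14 and 10.25 in yolk sac cells. The 3 tissues did not overlap, and the heart tube arrays were the low ones. The difference was -1.16 ± 0.16 (SE) for heart tube minus caudal-half tissue (limma adjusted p = 0.012), a level 2.23-fold lower in heart tube cells, and -1.71 ± 0.16 for heart tube minus yolk sac (limma adjusted p = 0.00156). Fos was thus among the 271 genes (1.49% of those tested) that were lower in the heart tube than in both other tissues. Between caudal-half tissue and yolk sac it differed by -0.55 ± 0.16, which did not pass (limma adjusted p = 0.0937, 95% interval -0.94 to -0.16).

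Fosb, a second Fos protein that likewise needs a Jun partner, followed the same order of means. It read 4.85 and 5.29 in heart tube cells, 6.03 and 5.76 in caudal-half cells, and 6.94 and 7.06 in yolk sac cells, again without overlap between tissues. The heart tube minus yolk sac difference was -1.93 ± 0.21 (limma adjusted p = 0.00273) and the caudal-half minus yolk sac difference -1.10 ± 0.21 (limma adjusted p = 0.0267). Yolk sac cells were therefore the high ones for Fosb against both embryonic tissues, a pattern that 579 genes (3.18%) shared. Heart tube minus caudal-half tissue, at -0.83 ± 0.21, missed the threshold (limma adjusted p = 0.086). The caudal-half call was lost without any single caudal-half or yolk sac array (limma adjusted p 0.0785 to 0.121), and that of Fos against the caudal-half tissue without the first or second heart tube array (0.0814 and 0.08) or the first caudal-half array (0.0772). Over all arrays left out in turn these differences ran from -1.23 to -0.97 for Fosb and from -1.23 to -1.09 for Fos. Such a fit leaves 1 array in a tissue, which is assumed to vary like the arrays of the other tissues.

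The Jun family, the obligate partners of Fos proteins, had no difference that passed. Jun read 11.32 and 11.37 in heart tube cells, 11.24 and 11.26 in caudal-half cells, and 10.78 and 10.62 in yolk sac cells. The yolk sac arrays were the low ones, the reverse of Fos. Heart tube minus yolk sac was 0.64 ± 0.16 (limma adjusted p = 0.0512, 95% interval 0.26 to 1.03) and caudal-half tissue minus yolk sac 0.55 ± 0.16 (limma adjusted p = 0.0929). The first of these passed under other settings, with the mean of both Jun probe sets (0.78, limma adjusted p = 0.0351), without dim genes (0.0365), with arrays centred on their median (0.0384) and with a trended prior (0.00198). Heart tube and caudal-half tissue differed by 0.09 ± 0.16 (95% interval -0.29 to 0.48). The other Jun probe set had the same sign in all 3 comparisons, with 0.23, 0.93 and 0.70 for heart tube minus caudal-half tissue, heart tube minus yolk sac and caudal-half tissue minus yolk sac.

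Junb, a Jun protein that can restrain Jun, was close to background. Its arrays read 4.14 and 4.43 in heart tube cells, 4.77 and 4.59 in caudal-half cells, and 4.38 and 4.45 in yolk sac cells, just above the highest bacterial control. Differences of -0.39, -0.13 and 0.26 (SE 0.18 each) did not pass, and a signal this weak limits what could be seen. Jund, the Jun protein present in most resting cells, read 11.03 and 11.06 in heart tube cells, 10.73 and 10.37 in caudal-half cells, and 10.76 and 10.73 in yolk sac cells. Its largest difference, 0.50 ± 0.18 for heart tube minus caudal-half tissue, did not pass (limma adjusted p = 0.211, 95% interval 0.05 to 0.94). The other Jund probe set, at 4.34 to 5.02, had the opposite sign in both comparisons with the heart tube (-0.34 and -0.45), so the direction for Jund is not settled by the array.

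Egr1, a zinc finger factor induced through serum response factor, read 8.89 and 8.77 in heart tube cells, 9.55 and 9.22 in caudal-half cells, and 9.87 and 9.73 in yolk sac cells. The arrays fell into 3 separate tissue ranges in the same order as for Fos. Heart tube minus yolk sac was -0.97 ± 0.19 (limma adjusted p = 0.0212), a level 1.96-fold lower in the heart tube. Neighbours in the order did not pass, at -0.56 ± 0.19 for heart tube minus caudal-half tissue (limma adjusted p = 0.167) and -0.41 ± 0.19 for caudal-half tissue minus yolk sac (limma adjusted p = 0.245). Leaving out any single heart tube or yolk sac array ended the Egr1 call (limma adjusted p 0.059 to 0.116), while the difference stayed between -1.04 and -0.90.

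Atf3, a stress-induced factor of the CREB and ATF family that can pair with Jun proteins, ran against Fos and Egr1. It read 8.78 and 8.70 in heart tube cells, 8.96 and 8.88 in caudal-half cells, and 7.08 and 7.21 in yolk sac cells. The yolk sac arrays stood far below the others. Heart tube minus yolk sac was 1.60 ± 0.16 (limma adjusted p = 0.00205) and caudal-half tissue minus yolk sac 1.78 ± 0.16 (limma adjusted p = 0.00228), or 3.02-fold and 3.44-fold higher on the log2 reading. Genes lower in yolk sac cells than in both embryonic tissues made up 1.78% of all genes tested. Heart tube and caudal-half tissue differed by -0.18 ± 0.16 (limma adjusted p = 0.595, 95% interval -0.57 to 0.20).

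Ier3, an early response protein that modulates cell survival under stress, had the largest difference of the 10. It read 6.34 and 6.28 in heart tube cells, 8.63 and 8.76 in caudal-half cells, and 7.13 and 7.20 in yolk sac cells. The caudal-half arrays were the high ones and the heart tube arrays the low ones. Heart tube minus caudal-half tissue was -2.39 ± 0.16 (limma adjusted p = 0.000966), 5.23-fold lower in heart tube cells (10.9-fold if the signals are linear), and 1.2% of all genes differed by more in either direction. Caudal-half tissue minus yolk sac was 1.53 ± 0.16 (limma adjusted p = 0.00365) and heart tube minus yolk sac -0.85 ± 0.16 (limma adjusted p = 0.0198). Ier3 was the only one of the 10 to pass all 3 comparisons, although the last call was lost without any single heart tube or yolk sac array (limma adjusted p 0.0669 to 0.109), where the difference lay between -0.89 and -0.82. Genes higher in the caudal-half tissue than in both others made up 0.929% of all genes.

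Ier2, a nuclear early response protein, also had its highest mean in caudal-half cells, as Atf3 and Junb did. It read 7.15 and 6.96 in heart tube cells, 7.59 and 7.45 in caudal-half cells, and 6.37 and 6.69 in yolk sac cells. Caudal-half tissue minus yolk sac was 0.99 ± 0.19 (limma adjusted p = 0.0259), the only 1 of its 3 differences to pass. Heart tube lay between, at 0.53 ± 0.19 over the yolk sac (limma adjusted p = 0.138) and -0.47 ± 0.19 against the caudal-half tissue (limma adjusted p = 0.244). The call ended without the heart tube arrays (0.0521, also without either of them), either caudal-half array (0.122 and 0.0844) or the first yolk sac array (0.107), with differences between 0.84 and 1.15 over all arrays left out.

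Dusp1, the dual-specificity phosphatase that inactivates p38, JNK and ERK kinases, read 10.29 and 10.15 in heart tube cells, 10.64 and 10.62 in caudal-half cells, and 11.13 and 10.98 in yolk sac cells. These ranges did not overlap, with the heart tube lowest. Heart tube minus yolk sac was -0.83 ± 0.16 (limma adjusted p = 0.0231), while the steps between neighbours, -0.41 ± 0.16 and -0.42 ± 0.16, did not pass (limma adjusted p = 0.238 and 0.183). Without any single heart tube or yolk sac array the call of Dusp1 was lost (limma adjusted p 0.0574 to 0.128), with the difference between -0.91 and -0.76.

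**Figure D2:**
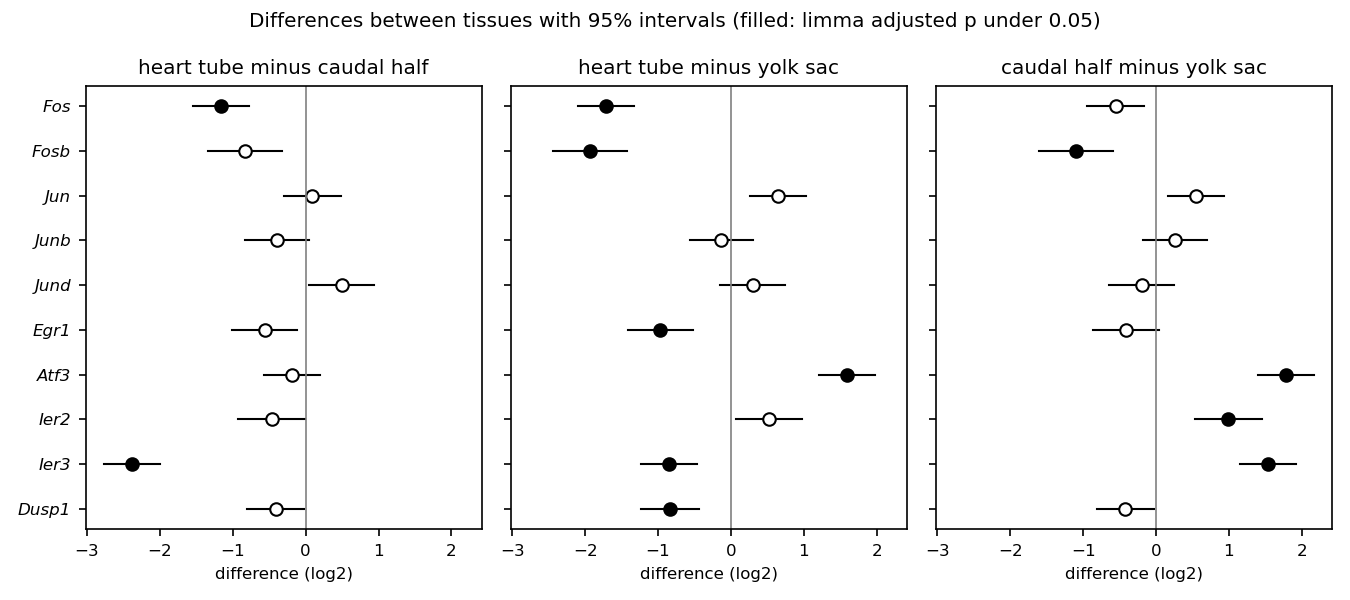
Difference in level (log2) of each of the 10 genes in the 3 comparisons, with limma's 95% intervals; filled points passed an adjusted p of 0.05 over all genes. The panels hold 2, 6 and 4 filled points, and Ier3 at -2.39 lies farthest from 0.

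Set out by comparison, heart tube against caudal-half tissue gave 0 higher and 2 lower of 10 (Fos and Ier3), where 5.51% of all genes passed in either direction, 2.86% higher and 2.65% lower. At an unadjusted p under 0.05 there were 7 of the 10 and 3556 of all genes. The median difference of the 10 was -0.44, against -0.08 over all genes. Tissue ranges did not overlap for any of the 10, but that held for 51.3% of all genes.

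Heart tube against yolk sac gave 1 higher (Atf3) and 5 lower of 10 (Fos, Fosb, Egr1, Ier3 and Dusp1), with 11.8% of all genes passing in either direction, 5.14% higher and 6.67% lower. Here the median difference was -0.48, against -0.06 over all genes, and the median size without sign 0.84, against 0.30. The ranges did not overlap for 9 of the 10, and for 56.3% of all genes. Without a single heart tube or yolk sac array, whichever it was, 3 of the 6 calls were left, 1 higher and 2 lower.

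Caudal-half tissue against yolk sac gave 3 higher (Atf3, Ier2 and Ier3) and 1 lower (Fosb) of 10, with 9.08% of all genes passing in either direction, 4.22% higher and 4.86% lower. Differences of the 10 ran from -1.10 to 1.78 around a median of 0.03, against 0.02 over all genes. Ranges did not overlap for 9 of the 10, and for 51.6% of all genes. The count was 2 without the first or second caudal-half array or the first yolk sac array. The 3 comparisons share arrays and are not independent of each other.

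Other measurements moved with the same tissue contrasts. The mean of the endothelial markers had the order of Fos, but not every marker did. In heart tube against yolk sac 0 of 10 were higher and 5 lower (Cdh5, Kdr, Flt1, Esam and Erg). Against caudal-half tissue heart tube cells had 1 higher (Eng) and 2 lower (Esam and Emcn), and caudal-half tissue against yolk sac gave 1 higher (Emcn) and 2 lower (Tek and Eng). The means of Eng were 9.26 in heart tube cells, 8.30 in caudal-half cells and 9.14 in yolk sac cells, those of Tek 11.43, 10.65 and 11.83, and those of Emcn 10.19, 11.06 and 9.74 in the same order. Of 10 visceral endoderm markers 0 were higher and 9 lower in heart tube against yolk sac (median -5.54), and 0 higher and 8 lower in caudal-half tissue against yolk sac (median -5.50). Erythroid markers were lower in heart tube than yolk sac in 5 of 8 and higher in 1, with a mean level over the list of 6.72 to 6.96 in heart tube cells, 6.92 to 7.42 in caudal-half cells and 8.62 to 8.94 in yolk sac cells. Cardiomyocyte markers were higher in the heart tube in 6 of 12 against caudal-half tissue and 8 of 12 against yolk sac, averaging 6.85 to 6.91 in heart tube cells, 4.93 to 5.09 in caudal-half cells and 4.40 to 4.71 in yolk sac cells. Mesenchymal markers averaged 7.12 to 7.14 in heart tube cells, 5.69 to 5.74 in caudal-half cells and 7.31 to 7.49 in yolk sac cells.

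Of the mesenchymal markers, 6 of 10 were higher and 0 lower in heart tube against caudal-half tissue, 3 higher and 4 lower in heart tube against yolk sac, and 2 higher and 6 lower in caudal-half tissue against yolk sac. Leukocyte markers gave 0 of 8 calls by limma in each comparison, with 1, 3 and 0 at an unadjusted p under 0.05, and 5 of 8 (Ptprc, Aif1, Tyrobp, Lyz2 and Adgre1) were within the bacterial range on every array. Of 5 megakaryocyte markers, 1 was lower in each embryonic tissue against yolk sac. It was Itga2b, which encodes CD41, the protein the cells were sorted against. Its transcript read 6.81 and 6.93 in heart tube cells, 6.80 and 6.42 in caudal-half cells, and 8.37 and 8.18 in yolk sac cells, above the bacterial controls on every array. Its differences were -1.41 for heart tube minus yolk sac (limma adjusted p = 0.00687) and -1.67 for caudal-half tissue minus yolk sac (limma adjusted p = 0.00522). Of the other markers on that list Ppbp and Gp1bb were within the bacterial range on every array. Nkx2-5 and Ryr2 of the cardiomyocyte list were within it in every tissue, as were Rbp4, Amn and Cdh1 of the visceral endoderm list in the heart tube and Apob and Amn in the caudal-half tissue. Myh6 of the cardiomyocyte list was within it in the yolk sac. Of the mesenchymal list, Lum and Dcn were within it in the heart tube, Dcn and Tcf21 in the caudal-half tissue, and Tcf21 and Prrx1 in the yolk sac. The part of these cells in the differences of the immediate early genes was not tested. For Gapdh, the 3' probe set exceeded the 5' one, a gap that grows with RNA degradation, by 1.88 and 1.98 in heart tube cells, 1.67 and 1.58 in caudal-half cells and 2.04 and 1.81 in yolk sac cells. The same gap for the actin controls lay between -0.10 and 0.01 on the 6 arrays. The part of either in the differences was not tested.

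Replicates of the 10 genes lay closer together in the median than those of all genes. Fos, Jun, Jund, Egr1 and Dusp1 stood at percentiles 90.12 to 97.85 of mean level, and genes were not matched for level here. The median difference between replicates of a tissue, without sign, was 0.10 in heart tube cells, 0.14 in caudal-half cells and 0.12 in yolk sac cells, against 0.20, 0.23 and 0.23 over all genes. The largest was 0.43, for Fosb in heart tube cells.

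Likeness of patterns was measured as the root mean square distance between the levels on the 6 arrays, each gene centred on its own mean. Among the 10 genes the closest pair was Egr1 and Dusp1, at a distance of 0.11, and the Fos family pair followed at 0.264. Atf3 lay 1.39 from Fos and 1.54 from Fosb. Ier3 had no near neighbour among the 10, the closest being Ier2 at 0.816. Outside the 10, of 12638 genes above the bacterial range the nearest to Fos were the zinc finger factor Zbtb46 (0.055), the lysophosphatidic acid receptor Lpar6 (0.072), the SoxF factor Sox18 (0.1), the class I histocompatibility gene H2-K1 (0.101) and the endocytic gene Ehd4 (0.111). The median distance of all these genes from Fos was 0.763. Nearest to Egr1 were Aup1 (0.037), Arhgap29 (0.061), Bcas3 (0.073), Dusp26 (0.076) and Mfge8 (0.084), where the median over the same 12638 genes was 0.504. These distances are a description over 6 arrays and carry no test.

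Lists of related genes were also chosen with earlier results known. Over all genes, 2.86% were higher and 2.65% lower in heart tube against caudal-half tissue. The shares were 5.14% and 6.67% in heart tube against yolk sac, and 4.22% and 4.86% in caudal-half tissue against yolk sac. In the same order, 3556, 4734 and 4337 of the 18193 genes had an unadjusted limma p under 0.05. Of 33 other immediate early genes, heart tube against caudal-half tissue gave 1 higher (Klf4) and 4 lower (Gadd45g, Egr2, Sgk1 and Myc), at a median of -0.38 against -0.08 over all genes. Gadd45g, a stress-response gene, differed by -1.29 ± 0.16 and Egr2, a zinc finger relative of Egr1, by -1.03 ± 0.20. The Krüppel-like factor Klf4 was 1.08 ± 0.21 higher. Against the yolk sac heart tube cells had 5 higher and 3 lower, at a median of 0.04. Errfi1, an inhibitor of the EGF receptor, was higher by 1.19, Klf4 by 1.18, the orphan nuclear receptor Nr4a1 by 1.06 and Myc by 0.87, while Klf10 (-1.34), the kinase gene Sgk1 (-0.92) and Egr4 (-0.77) were lower.

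In caudal-half tissue against yolk sac 7 of the 33 were higher and 0 lower, where 4.22% and 4.86% of all genes were. The list median was 0.29, against 0.02 over all genes. The 7 included Maff, a small Maf protein (1.81 ± 0.28), Errfi1 (1.68 ± 0.24), the growth regulator Myc (1.64 ± 0.16) and Ccn2, connective tissue growth factor (1.34 ± 0.21). Ccn1, the sister gene of Ccn2, differed by 0.63 and did not pass (limma adjusted p = 0.126).

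**Figure D3:**
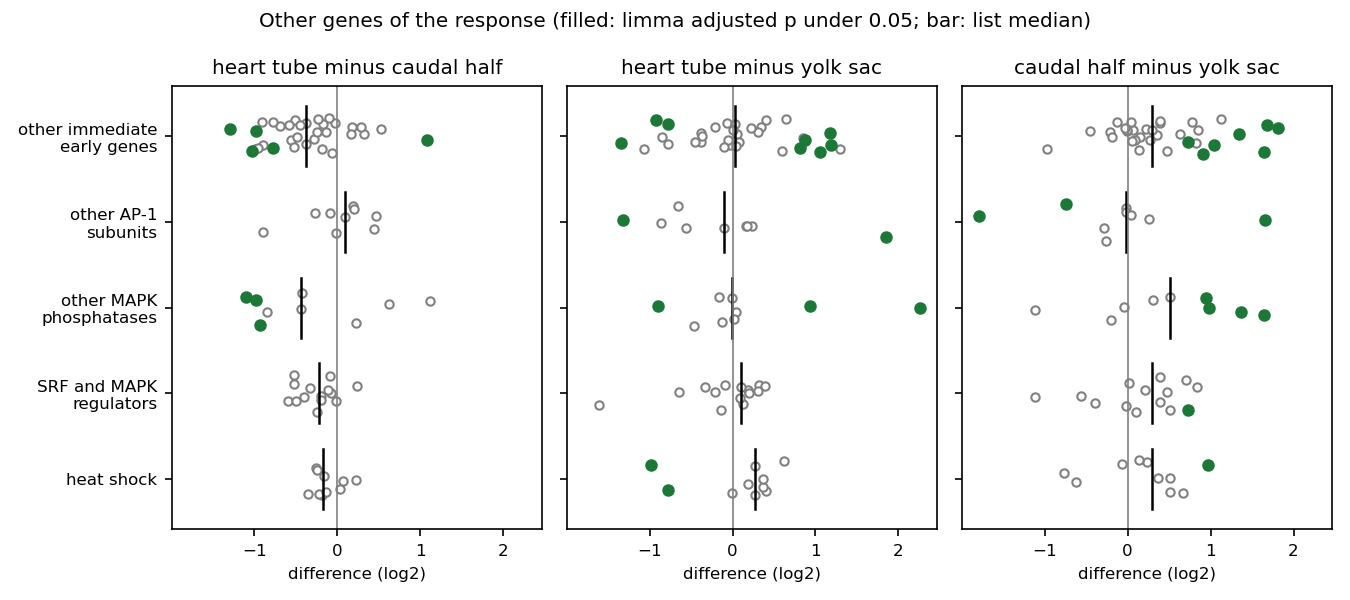
Difference in level (log2) of the measured genes of 5 gene lists in the 3 comparisons, with filled points for genes that passed limma's adjusted p of 0.05 and a bar at the list median; vertical scatter within a row carries no value. Among other immediate early genes, the panel of caudal-half tissue minus yolk sac has 7 filled points, all to the right of 0.

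Of 9 further AP-1 subunits, 0 passed in heart tube against caudal-half tissue by limma, also 0 at an unadjusted p under 0.05. Fosl2, a Fos-related subunit, was higher by 1.85 ± 0.23 in heart tube against yolk sac and by 1.66 ± 0.23 in caudal-half tissue against yolk sac, opposite in sign to Fos and Fosb. Jdp2, a repressor that pairs with Jun, differed by -1.32 ± 0.26 and -1.79 ± 0.26 in the same comparisons, lower in the embryonic tissues, and Atf7 by -0.75 in the second of them. Fosl1 did not pass (differences -0.90, -0.86 and 0.04).

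Among 9 other MAP kinase phosphatases, 3 were lower and 0 higher in heart tube against caudal-half tissue, where 2.65% and 2.86% of all genes were. The 3 were Dusp4 (-1.11 ± 0.18), Dusp6 (-0.98 ± 0.16) and Dusp5 (-0.93 ± 0.16), phosphatases that act mainly on ERK. In caudal-half tissue against yolk sac 4 were higher and 0 lower, where 4.22% and 4.86% of all genes were. The 4 were Dusp16 (1.64), Dusp2 (1.37), Dusp5 (0.98) and Dusp4 (0.94). Heart tube against yolk sac gave Dusp16, a phosphatase of JNK and p38, at 2.26 ± 0.22 and Dusp2 at 0.93 higher, and Dusp7 at -0.89 lower. Dusp1 had its highest mean in the yolk sac, where Dusp16 and Dusp2 had their lowest.

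Of 14 measured genes for serum response factor, its partners and MAP kinase components, 0 passed in heart tube against caudal-half tissue and 0 in heart tube against yolk sac by limma, with 2 at an unadjusted p under 0.05 in each. In caudal-half tissue against yolk sac 1 passed, Creb1 at 0.73 ± 0.17. Srf itself differed by -0.20, 0.20 and 0.39 in the 3 comparisons.

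Of 10 measured heat shock genes, chaperones of the stress response, 0 passed in heart tube against caudal-half tissue by limma, also 0 at an unadjusted p under 0.05. In heart tube against yolk sac 0 were higher and 2 lower, the near-identical genes Hspa1b (-0.99 ± 0.19) and Hspa1a (-0.78 ± 0.18), which the probes may not separate, while the list median was 0.27. Caudal-half tissue against yolk sac gave 1 higher, Hsph1 at 0.97 ± 0.17, and 0 lower. Hspa1a and Hspa1b had their highest means in the yolk sac, as Fos and Fosb did, but most of the list did not. The list median was 0.27 for heart tube minus yolk sac and 0.30 for caudal-half tissue minus yolk sac, higher in the embryonic tissues. At an unadjusted limma p under 0.05 there were 4 and 6 of the 10 in these comparisons. The part of the heat shock genes in the differences of the immediate early genes was not tested.

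**Figure D4:**
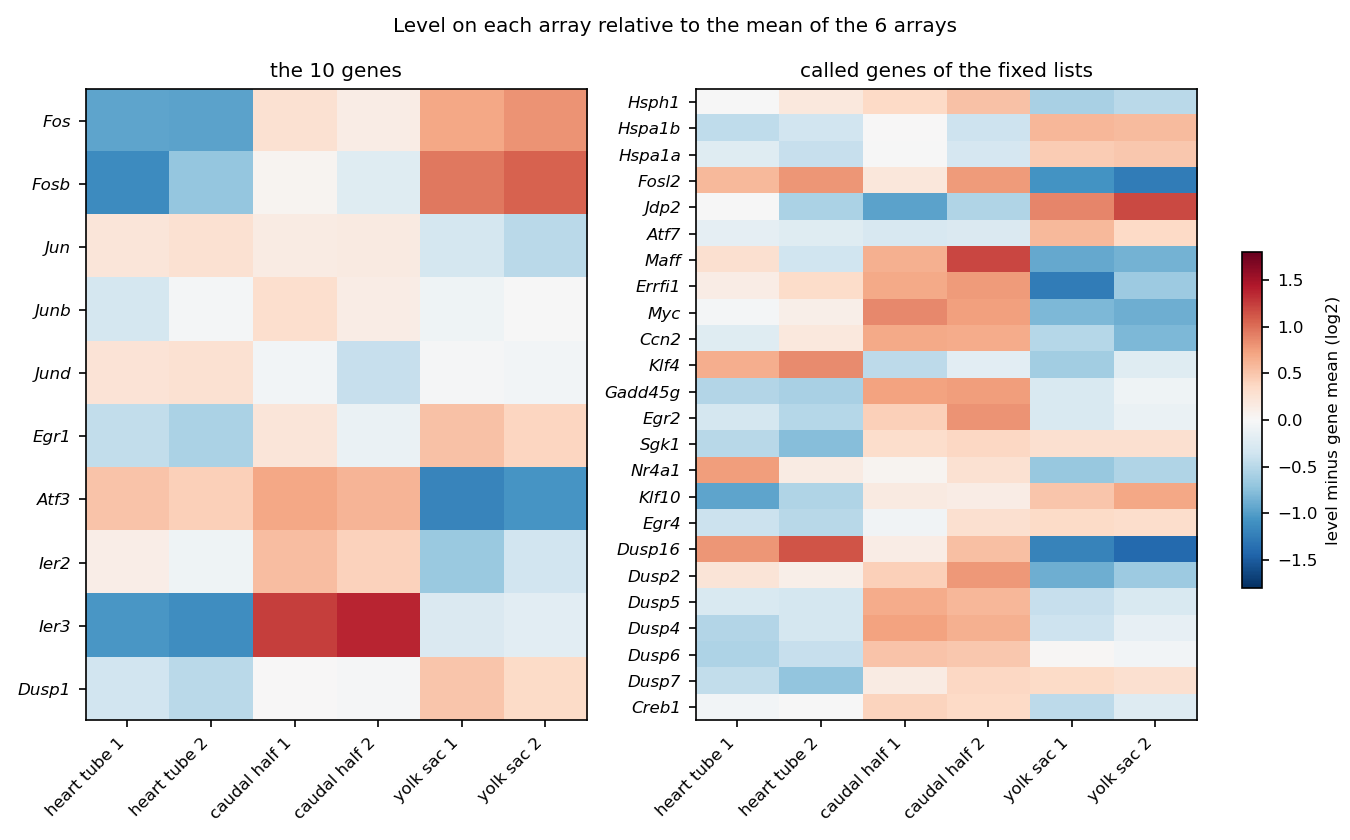
Level on each array relative to the gene's mean over the 6 arrays (log2, colour limits -1.8 to 1.8), for the 10 immediate early genes (left) and 24 genes of these lists that passed in a comparison (right), with heart tube, caudal-half and yolk sac arrays from left to right. Ier3 is strongest in the caudal-half columns at 8.63 and 8.76, and Atf3 and Fos show opposite colours in the yolk sac.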

How the data were processed

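The 6 arrays are sorted CD31-positive, CD41-negative and CD45-negative cells of 3 mouse tissues, 2 per tissue. The authors deposited 1 signal intensity per probe set, which the submitters' processing notes credit to affy and RMA. Their versions and the chip definition are not stated there. The natural log of the deposited intensities ran from 0.899 to 14.6 and was taken as RMA log2, while log2 of the highest signal would be 21.1. Of 45101 probe sets, 64 were controls, 34945 others carried 1 symbol in the platform annotation, 932 several and 9160 none, and 34741 matched a GRCm38.p6 gene table by Entrez identifier. Each of 18193 genes was its probe set with the highest mean.

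A model with 1 mean per tissue was fitted by limma 3.58.1 (lmFit, eBayes; R 4.3.3) to all 6 arrays without a covariate, two-sided, with Benjamini-Hochberg adjustment over all genes and a threshold of 0.05. The fit left 3 residual and 3.48 prior degrees of freedom, with a median SE per difference of 0.21. Precision is limited by the number of arrays. Alternatives were the mean of all probe sets, no dim genes, the replicate number as a block, 2 tissues only, a trended prior, median centring, log2 of the deposited signal and each array left out. The members and lists were chosen with earlier results of these data known. All 10 members are named. Of the 5 lists of related genes, called genes are named, up to 4 per direction, comparison and list, and of the marker lists only those needed to give their level, and for Fos and Egr1 the 5 nearest profiles. Genes named beyond this rule (Ccn1, Fosl1, Srf, the called endothelial markers, Itga2b and the markers within the bacterial range) were chosen after their values were seen. Listed genes without a probe set of their own are not analysed here, and 4 listed symbols were updated through synonyms. Promoters are from RefSeq on GRCm38.p6.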

Additional observations from a re-analysis of the deposited data

How the results depend on the processing

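Of the 12 called differences, 6 kept their call and direction under all 13 alternatives (Ier3 and Atf3 in caudal-half tissue minus yolk sac, Ier3 in heart tube minus caudal-half tissue, and Fos, Fosb and Atf3 in heart tube minus yolk sac), and 11 under the 7 that leave out no array. The exception was Ier2 in caudal-half tissue minus yolk sac when only those tissues were fitted (limma adjusted p = 0.0521). Of the 13 alternatives, log2 of the deposited signal leaves every p-value unchanged. Leaving out an array of the tissue not compared gives the same fit as the 2 tissues alone, so the alternatives are not independent. With a trended prior the members called were 4 in heart tube minus caudal-half tissue and 7 in caudal-half tissue minus yolk sac, with Jund and Dusp1 added in the first and Fos, Jun and Dusp1 in the second; the cause was not tested. Leaving out 1 array gave 1 to 2, 3 to 6 and 2 to 3 members in heart tube minus caudal-half tissue, heart tube minus yolk sac and caudal-half tissue minus yolk sac, and 376 to 899, 936 to 1794 and 638 to 1155 genes, against 1002, 2150 and 1652 with all arrays, as fewer arrays were fitted and the lone array of a tissue was assumed to vary like the others. The sign turned for Junb in heart tube minus yolk sac without the first heart tube array (range over arrays left out -0.273 to 0.00904) and for Jund there with the mean of its probe sets (-0.0732), neither called. The labels used here do not say whether replicate numbers pair the arrays. Replicate differences correlated between tissues at -0.007 to 0.047, which cannot decide it, as each tissue gives 1 such difference per gene. With the replicate number as a block the members called were 2, 6 and 4, as without it, and the genes called 776, 1876 and 1356. Junb and the weaker Jund probe set lie near the bacterial range, where small differences cannot be measured.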
